A study of Mus musculus with 6 samples.

Results

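Extracellular matrix genes of the mouse colon were followed in 3 genotypes after an acute ethanol injury. The set holds 39 listed genes for collagens, basement membrane, elastic fibres, cross-linking enzymes, proteoglycans, hyaluronan synthases and matricellular proteins. Members were listed by gene symbol for their role in the matrix, in a list drawn up with earlier results of these data known. A probe set annotated to the gene alone was found for 37 of them, of 18195 genes in all. Fbn1 and Loxl2 had no such probe set and were not analysed here. Following the division into genes that wounds induce and genes that build resting connective tissue, 8 of the 37 were counted as injury-induced (Fn1, Tnc, Postn, Sparc, Lox, Vcan, Has1 and Has2) and 29 as structural.

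The extracellular matrix is the protein and sugar scaffold that stromal cells, mainly fibroblasts and smooth muscle cells, secrete around themselves. Fibril-forming collagens give the submucosa its tensile strength, while type IV collagen, laminins, nidogens and perlecan form the thin basement membranes under the epithelium and around vessels and muscle. After a wound, fibroblasts and macrophages lay down a provisional matrix rich in fibronectin, tenascin and versican, which lysyl oxidases then stiffen by cross-linking collagen and elastin.

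All samples were colon tissue of C57BL/6 mice aged 6 to 8 weeks, taken 24 h after ethanol was injected into the rectum. The groups were wild type (WT) and knockouts of GPR41 (GPR41 KO) or GPR43 (GPR43 KO), with 2 Affymetrix arrays each, and ethanol was given to every group, so that WT is no uninjured control. GPR41 (Ffar3) and GPR43 (Ffar2) are receptors for the short-chain fatty acids that colonic bacteria produce. How either allele was made, and whether the arrays of a group came from separate animals, is not stated by the labels, so p-values cover the spread among these arrays, which may be technical.

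Values are MAS5 signals, a linear brightness per probe set, and their median per array ran from 80.9 (GPR41 KO replicate 1) to 96.8. The precision is limited by 2 arrays per group: the smallest two-sided p of an exact permutation test is 0.333, so p-values come from limma, which shares the spread between genes. As a check of the labels, Ffar2 gave WT signals of 1194 and 1118. Signals in GPR41 KO were 1857 and 1933. The GPR43 KO arrays differed: replicate 2 was low (189.0), but the library labelled GPR43 KO replicate 1 was not (1598) and so went against its label. For GPR43 KO against WT, the count of called members, the member medians and the calls are therefore given with and without this library. Counts at an unadjusted p, and the counts and medians of the other gene lists, are given only with this library included. On leaving it out, the log2 fold changes of the 34 tested members moved by -0.33 to 0.25, and Col3a1 and Col5a1 changed sign, neither of which passed. No probe set carried Ffar3, and the GPR41 KO label could not be checked this way. Markers of fibroblasts and smooth muscle, the main makers of matrix, were measured in every array, with summed signals of 11094 to 18488 over 9 fibroblast markers and 71573 to 118166 over 7 smooth muscle markers, and no marker of either was at 0.

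In GPR41 KO colon, 7 matrix genes were lower than in WT: Lox, Tnc, Vcan, Fn1, Col4a1, Col4a2 and Fbln2. None was higher, also at an unadjusted p under 0.05, and 27 of the 34 tested members did not pass (limma, Benjamini-Hochberg adjusted p under 0.05 over all 10917 genes tested). Among all genes tested, 3.11% were lower and 1.85% higher by the same rule. At an unadjusted p under 0.05, 1126 of the 10917 were lower and 1006 higher. The median log2 fold change was -0.36 over the tested members, -0.29 with the 3 that were too weak to test, and 0.00057 over all genes tested. Both GPR41 KO arrays lay below both WT arrays for 18 tested members and above them for 3, where 25.3% of all genes lay below and 24.6% above. Of the injury-induced genes, 4 of 6 tested fell, with a median of -1.02, and of the structural genes 3 of 28, with a median of -0.26. The split into these classes was made with earlier results of these data known, so the contrast is a description and not a test. With the filter at the 60th percentile, which leaves out Lox and Vcan, the injury-induced median was -0.70. Col4a1, Lox and Tnc stayed past the threshold when any 1 of the 6 arrays was left out (adjusted p up to 0.0196, 0.0297 and 0.0266). The count ran from 3, without WT replicate 2 or without GPR41 KO replicate 1, through 4 without GPR41 KO replicate 2, to 12 without WT replicate 1.

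In GPR43 KO colon, 5 matrix genes were lower than in WT: Lox, Tnc, Vcan, Col4a1 and Col4a2. None was higher (4 at an unadjusted p under 0.05) and 29 did not pass, where 2.41% of all genes tested were lower and 1.55% higher. At an unadjusted p under 0.05 in limma, 991 of the 10917 genes tested were lower and 1190 higher. The median was -0.081 over the tested members, -0.10 with the untested ones, and 0.030 over all genes tested. The GPR43 KO arrays lay below both WT arrays for 10 tested members and above them for 9, where 22.9% of all genes lay below and 27.7% above. GPR43 KO replicate 2 alone lay below both WT arrays for 14 and above them for 13, where 35.3% and 39.4% of all genes did. Of the injury-induced genes 3 of 6 fell, with a median of -0.73, and of the structural genes 2 of 28, with a median of 0.080. These medians were -0.59 and 0.12, and that of all tested members -0.046, when GPR43 KO was represented by replicate 2 alone. With the filter at the 60th percentile, which leaves out Lox and Vcan, the injury-induced median was -0.31. As for GPR41 KO, the contrast of the 2 classes is a description and not a test. Leaving out the library labelled GPR43 KO replicate 1 kept 2 calls, Col4a1 (log2 fold change -1.17, adjusted p = 0.0342) and Tnc (-1.46, adjusted p = 0.0339). The same 2 genes were left without WT replicate 2, and none was left without GPR43 KO replicate 2 (Col4a1 adjusted p = 0.0543, Tnc adjusted p = 0.0702).

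All 5 genes lower in GPR43 KO were among the 7 lower in GPR41 KO. The same overlap was not counted over all genes tested, so it is not read as a trait of matrix genes. Both comparisons use the same WT arrays, so they are not independent. In bulk tissue, fewer cells of a type and less RNA per cell cannot be told apart.

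**Figure D1:**
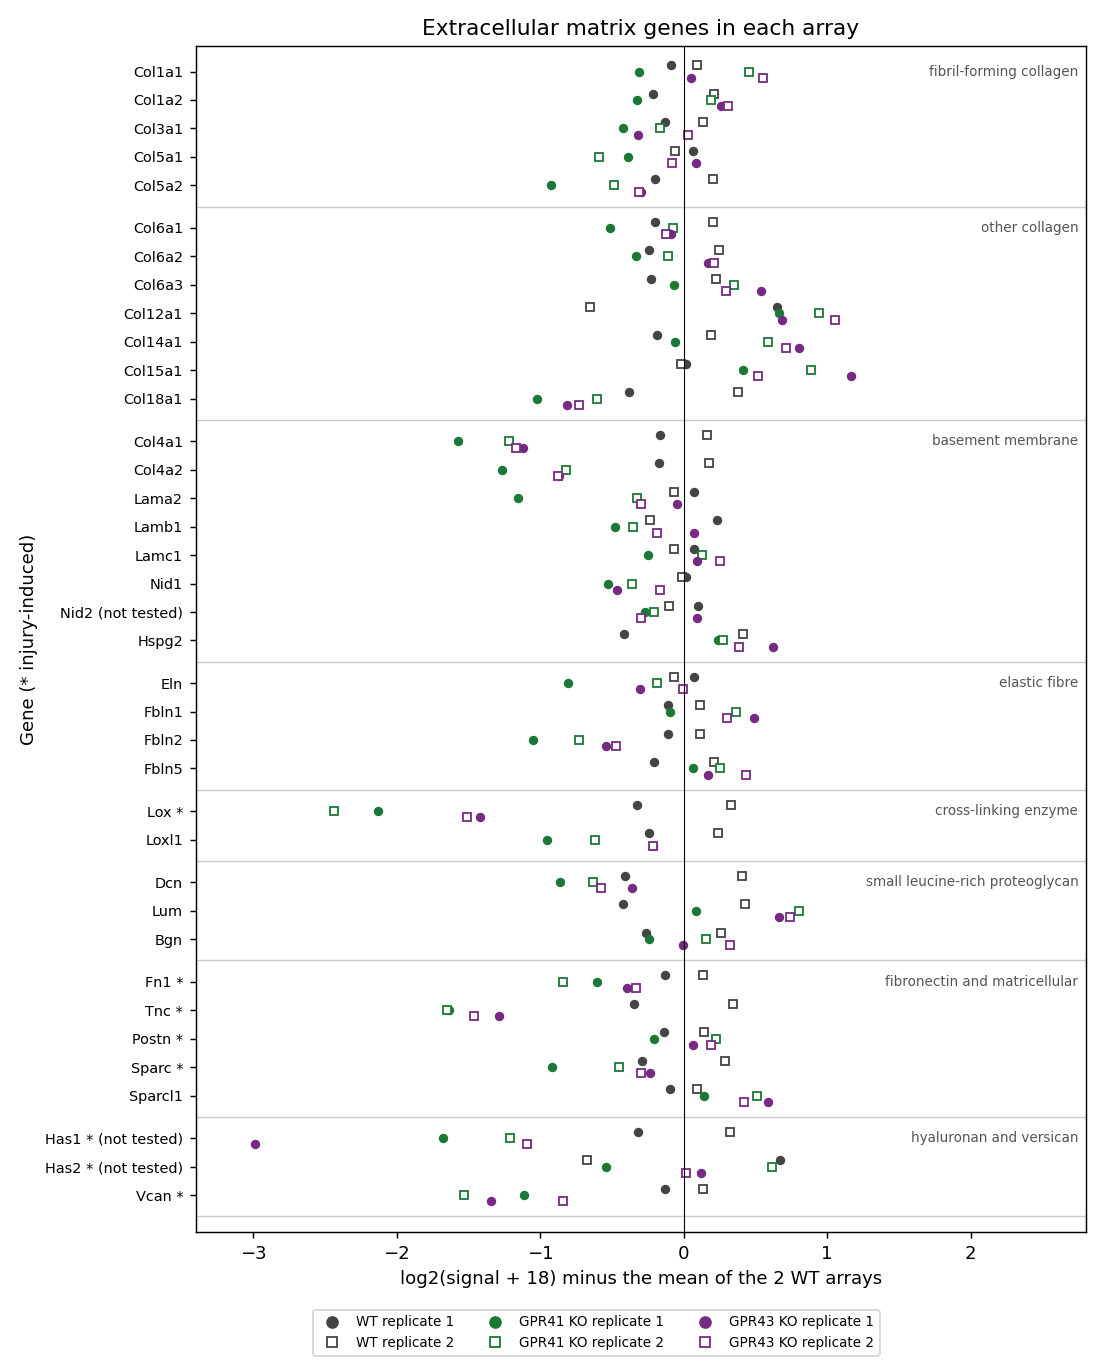
Signal of each of the 37 matrix genes in each array, as log2(signal + 18) minus the mean of the 2 WT arrays (x axis), with genes grouped by role (y axis). Filled circles are replicate 1 and open squares replicate 2. Lox, Tnc, Vcan, Col4a1 and Col4a2 have all 4 KO arrays to the left of both WT arrays. So do Fn1, Fbln2, Nid1, Col5a2, Col18a1 and Has1, while type I, VI and XIV collagens and lumican do not.

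Lox encodes lysyl oxidase, the enzyme that starts the cross-linking of collagen and elastin, and it had the largest fall of the 34 tested members in both comparisons. Only the WT arrays brought it past the signal filter: its GPR41 KO signals lay below the filter level (about 126) and its GPR43 KO signals just above it, so the size of the fall is uncertain. Its signal was 332 and 534 in WT, 82.2 and 63.0 in GPR41 KO, and 146 and 136 in GPR43 KO. All 4 KO arrays were below both WT arrays, and the GPR41 KO arrays were below the GPR43 KO arrays with the probe set used. The log2 fold change was -2.29 ± 0.30 (SE, n = 2 per group, 4.88-fold lower, adjusted p = 0.00383) in GPR41 KO. It was -1.47 ± 0.30 (2.76-fold lower, adjusted p = 0.0331) in GPR43 KO. Leaving out the library labelled GPR43 KO replicate 1 made that second value -1.51, which did not pass (adjusted p = 0.108), nor did it without GPR43 KO replicate 2 (0.162) or WT replicate 2 (0.198). The other probe set of Lox above the filter level gave -1.88 (adjusted p = 0.0137) and -1.79 (adjusted p = 0.0218) in a fit over all probe sets. With that probe set the KO groups overlapped, at 122 and 71.5 in GPR41 KO and 95.7 and 107 in GPR43 KO. Loxl1, a lysyl oxidase relative that acts on elastic fibres, had signals of 857 and 1202 in WT, 516 and 656 in GPR41 KO, and 872 and 874 in GPR43 KO. Its log2 fold change of -0.78 ± 0.20 in GPR41 KO did not pass (adjusted p = 0.0593) except without WT replicate 1 (-1.02, adjusted p = 0.0132), and in GPR43 KO it was -0.21 ± 0.20 (adjusted p = 0.596), also with replicate 2 alone.

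Tnc, tenascin-C, is a matricellular protein that appears around wounds and in inflamed stroma. It read 3029 and 4908 in WT, 1228 and 1216 in GPR41 KO, and 1566 and 1386 in GPR43 KO, so that every KO array was below the lower WT array. The log2 fold change was -1.64 ± 0.21 (3.12-fold lower, adjusted p = 0.00307) in GPR41 KO. The GPR43 KO value was -1.38 ± 0.21 (2.60-fold lower, adjusted p = 0.00913).

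Vcan encodes versican, the large proteoglycan that binds hyaluronan in provisional matrix. Its signals of 554 and 669 in WT stood above 271 and 199 in GPR41 KO and above 229 and 331 in GPR43 KO. The log2 fold change was -1.32 ± 0.25 (2.50-fold lower, adjusted p = 0.0183) in GPR41 KO and -1.09 ± 0.25 (2.13-fold lower, adjusted p = 0.0464) in GPR43 KO. The first call was lost without WT replicate 2, GPR41 KO replicate 1 or GPR41 KO replicate 2 (adjusted p 0.0917, 0.0525 and 0.118). The second was kept only without WT replicate 1 among the 6 arrays, and leaving out the library labelled GPR43 KO replicate 1 gave -0.84 (adjusted p = 0.203). In a limma fit over all probe sets, a second probe set of Vcan gave -1.19 (adjusted p = 0.0355) and -1.10 (adjusted p = 0.0560). Another gave -0.62 (adjusted p = 0.623) and -1.99 (adjusted p = 0.101) with a SE of 0.53. The probe set used had adjusted p of 0.0278 and 0.0659 there. No Vcan probe set above the filter level passed in GPR43 KO in that fit.

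The promoters of Tnc and Vcan, the injury-induced genes that fell in both comparisons and for which a RefSeq promoter was at hand, are shown as RefSeq windows of GRCm38.p6 from 250 bases before to 50 after a transcript start, read 5′ to 3′ on the gene's strand. Capitals mark matches, on either strand, to the TATA box (searched as TATAAA), the CCAAT box (CCAAT), the AP-1 site (TGANTCA) and the GC box (GGGCGG). The Tnc window is the minus strand of chr4:64046887-64047186 and the Vcan window the minus strand of chr13:89742463-89742762.
Tnc: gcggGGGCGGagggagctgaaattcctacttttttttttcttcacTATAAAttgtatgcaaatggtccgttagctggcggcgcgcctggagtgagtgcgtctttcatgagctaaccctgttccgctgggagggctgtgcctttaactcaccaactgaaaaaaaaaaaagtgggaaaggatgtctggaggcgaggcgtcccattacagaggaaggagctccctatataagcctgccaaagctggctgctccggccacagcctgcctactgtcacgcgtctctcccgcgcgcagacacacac
Vcan: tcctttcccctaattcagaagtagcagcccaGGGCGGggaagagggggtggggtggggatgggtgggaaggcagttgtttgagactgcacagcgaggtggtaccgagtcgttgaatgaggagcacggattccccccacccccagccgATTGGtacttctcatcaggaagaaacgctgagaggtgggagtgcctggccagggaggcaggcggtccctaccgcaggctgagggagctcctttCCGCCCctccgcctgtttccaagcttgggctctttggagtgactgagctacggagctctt
The Tnc window holds 1 TATAAA match, at -205 from the transcript start, and 1 GC box. In a second Tnc window, of another transcript start, that TATAAA lies at -126. The letters tatataag, nearer the start in the window shown, do not match TATAAA and are not marked. The Vcan window holds 1 CCAAT box and 2 GC boxes. Of the 39 members, 24 had a promoter in the table. The GC box was found in 17 of these (70.8%) and in 38.2% of 27025 genes with a promoter, the CCAAT box in 41.7% and 41.1%, the TATA box in 12.5% and 15.7%, the AP-1 site in 4.2% and 9.0%, and a kappa-B-like motif in 0 members and 1.6% of genes. These are counts of letters and do not show that a factor binds.

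Fn1, fibronectin, links cells to the matrix through integrins and is the main protein of the early provisional matrix. Its signals were 4212 and 5066 in WT, 3033 and 2569 in GPR41 KO, and 3515 and 3667 in GPR43 KO. The 3 groups did not overlap, with WT highest and GPR41 KO lowest. The log2 fold change passed in GPR41 KO (-0.72 ± 0.14, 1.65-fold lower, adjusted p = 0.0210), but not without WT replicate 2, GPR41 KO replicate 1 or GPR41 KO replicate 2 (adjusted p 0.0924, 0.0584 and 0.143). In GPR43 KO it was -0.36 ± 0.14 (adjusted p = 0.195), and when the library labelled GPR43 KO replicate 1 was dropped it was -0.33 (adjusted p = 0.453).

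Sparc and Postn, matricellular proteins that help collagen fibrils form, were counted as injury-induced but did not pass. Sparc had signals of 9693 and 14494 in WT, 6252 and 8660 in GPR41 KO, and 10049 and 9653 in GPR43 KO. Its log2 fold change was -0.69 ± 0.21 (adjusted p = 0.113) in GPR41 KO, and it passed without WT replicate 1 (adjusted p = 0.0107). A second probe set of Sparc gave -0.70 (adjusted p = 0.0467) in the fit over all probe sets. Postn, periostin, had overlapping signals in the 3 groups, from 4022 to 5409, and log2 fold changes of 0.0088 ± 0.17 and 0.13 ± 0.17 (0.19 for GPR43 KO replicate 2 alone).

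The hyaluronan synthases Has1 and Has2 make the polysaccharide that versican binds, and both were below the signal filter (a mean of about 126), so they were not tested. Has1 read 216 and 347 in WT, 73.3 and 109 in GPR41 KO, and 18.8 and 119 in GPR43 KO, with all 4 KO arrays below both WT arrays. The lowest value was that of the library labelled GPR43 KO replicate 1, and these low signals are close to background. Has2 ranged from 21.5 to 82.1 and overlapped between groups.

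**Figure D2:**
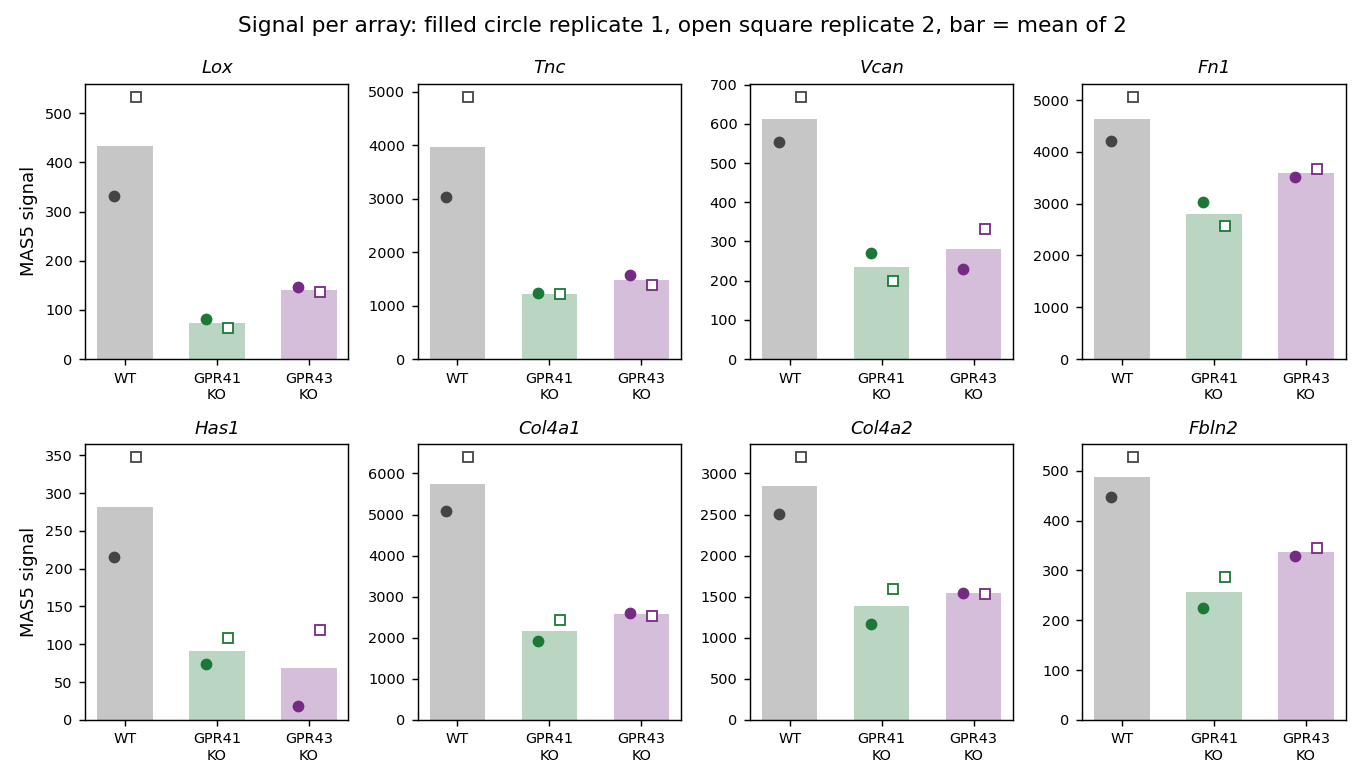
MAS5 signal per array (y axis, linear, from 0) in WT, GPR41 KO and GPR43 KO for the 7 genes that passed in either comparison and for Has1, which was not tested. Bars are means of 2 arrays, filled circles replicate 1 and open squares replicate 2; in each panel both WT arrays stand above all 4 KO arrays.

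Markers of other cells were read beside the matrix genes, and their part in these results was not tested. The neutrophil and macrophage lists had medians below 0 in both comparisons. The fibroblast and endothelial lists had medians of -0.40 and -0.26 in GPR41 KO but 0.11 and 0.21 in GPR43 KO. Of all genes tested, 3.11% were called lower in GPR41 KO and 2.41% in GPR43 KO. Neutrophil markers fell in 5 of 5 tested in both comparisons. Their lowest signal in any array was 22.8, under the filter level (about 126). A marker that weak in KO was tested only if it was high in WT, so its fall was partly set by the filter. Their summed signal was 72021 and 128186 in WT and ran from 647 to 2716 in the 4 KO arrays. The call of Csf3r in GPR43 KO was lost without WT replicate 2 or GPR43 KO replicate 2. Macrophage markers fell in 2 of 6 (Cd68 and Lyz2) in both, and their summed signal was 18342 and 25335 in WT and 9575 to 14264 in the KO arrays. Both macrophage calls were lost in GPR41 KO without GPR41 KO replicate 1 and in GPR43 KO without either GPR43 KO array, and that of Lyz2 in GPR43 KO also without WT replicate 2. Fibroblast markers fell in 1 of 7 in GPR41 KO (S100a4, also expressed by leukocytes, -1.35 ± 0.25, adjusted p = 0.0182), a call lost without WT replicate 2 or either GPR41 KO array. None of the 7 passed in GPR43 KO (limma, 1 lower and 1 higher at an unadjusted p under 0.05), where S100a4 had -1.09 (adjusted p = 0.0514). By that unadjusted rule, 991 of the 10917 genes tested were lower and 1190 higher in GPR43 KO. The summed fibroblast signal of 13338 and 18488 in WT lay above 11094 and 12494 in GPR41 KO and overlapped 14088 and 14511 in GPR43 KO. Endothelial markers fell in 1 of 5 in GPR41 KO (Pecam1, -0.87 ± 0.17, adjusted p = 0.0239) and in 0 of 5 in GPR43 KO (1 lower and 1 higher at an unadjusted p under 0.05), with summed signals of 1449 and 1796 in WT, 1107 and 1294 in GPR41 KO, and 1478 and 1495 in GPR43 KO. The Pecam1 call was lost without either WT array or either GPR41 KO array. Of 4 tested adipocyte markers, Fabp4 fell in both and the other 3 did not pass. Those 3 had values above 0 in GPR41 KO, from 0.073 (Retn) to 1.75 (Adipoq, adjusted p = 0.123), and the list's median was 0.20 there and -0.41 in GPR43 KO. Its summed signal, mostly that of Fabp4, was 2402 and 3333 in WT and 1477 to 2192 in KO. The Fabp4 call was lost in GPR41 KO without WT replicate 2 or either GPR41 KO array, and in GPR43 KO without GPR43 KO replicate 2. None of 3 mesothelial markers and 1 glial marker passed, and their summed signals overlapped between WT and KO. No marker of these cell types was at 0 in any array.

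Smooth muscle and epithelial markers mostly stood higher in the KO arrays. Both KO arrays lay above both WT arrays for 6 of 7 smooth muscle markers in GPR41 KO and 7 of 7 in GPR43 KO. For epithelial markers it was 5 of 6 in each comparison, where 24.6% and 27.7% of all genes tested lay above. By adjusted p, 1.85% of all genes tested were higher in GPR41 KO and 1.55% in GPR43 KO. Actg2, the enteric smooth muscle actin, rose by 0.83 ± 0.14 in GPR41 KO (adjusted p = 0.0117) and by 0.88 ± 0.14 in GPR43 KO (adjusted p = 0.0113). Each call was lost when 1 array of that KO group was left out, and leaving out the library labelled GPR43 KO replicate 1 gave 0.83 (adjusted p = 0.0790). The other 6 smooth muscle markers did not pass, and the summed signal was 71573 and 80296 in WT and 90237 to 118166 in KO. Of the epithelial markers, Vil1 passed in GPR41 KO (0.58 ± 0.13, adjusted p = 0.0398), a call kept only without WT replicate 1 among the 6 arrays, and the other 5 did not. Their summed signal was 107987 and 112420 in WT and 142770 to 152864 in KO.

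Among the 7 tested basement membrane genes, Col4a1 and Col4a2 fell in both KO groups and the other 5 did not pass. By the same rule, 3.11% of all genes tested were lower in GPR41 KO and 2.41% in GPR43 KO. Col4a1 and Col4a2 encode the type IV collagen chains that assemble together into the network of every basement membrane. Col4a1 read 5087 and 6389 in WT, 1908 and 2440 in GPR41 KO, and 2612 and 2528 in GPR43 KO. The log2 fold change was -1.39 ± 0.16 (2.63-fold lower, adjusted p = 0.00220) in GPR41 KO and -1.14 ± 0.16 (2.21-fold lower, adjusted p = 0.00683) in GPR43 KO. Its other probe set also passed in both comparisons (adjusted p = 0.0140 and 0.0375). Col4a2 read 2510 and 3195 in WT, 1169 and 1593 in GPR41 KO, and 1545 and 1534 in GPR43 KO. Its log2 fold change was -1.04 ± 0.18 (2.06-fold lower, adjusted p = 0.0121) and -0.87 ± 0.18 (1.83-fold lower, adjusted p = 0.0318). The GPR41 KO call of Col4a2 was lost without WT replicate 2 (adjusted p = 0.0507) or GPR41 KO replicate 1 (0.0882). Its GPR43 KO call was lost on leaving out the library labelled GPR43 KO replicate 1 (-0.88, with an adjusted p of 0.118), and also without GPR43 KO replicate 2 (0.160) or WT replicate 2 (0.121).

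Col4a1 and Col4a2 lie head to head on chromosome 8 (GRCm38.p6), Col4a1 at 11198423 to 11312889 on the minus strand and Col4a2 at 11312805 to 11449287 on the plus strand. Their RefSeq promoter windows, chr8:11312777-11313076 (minus) and chr8:11312555-11312854 (plus), are shown because the pair fell together and shares this stretch. The start sites are 21 bases apart, and capitals mark the 78 bases that both windows hold, each the reverse complement of the other.
Col4a1: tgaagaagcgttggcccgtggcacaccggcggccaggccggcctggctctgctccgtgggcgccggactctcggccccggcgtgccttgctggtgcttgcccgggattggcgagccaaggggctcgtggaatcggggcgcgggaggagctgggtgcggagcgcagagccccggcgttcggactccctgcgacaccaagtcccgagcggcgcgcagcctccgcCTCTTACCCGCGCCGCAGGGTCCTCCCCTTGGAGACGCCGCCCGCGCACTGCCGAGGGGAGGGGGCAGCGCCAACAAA
Col4a2: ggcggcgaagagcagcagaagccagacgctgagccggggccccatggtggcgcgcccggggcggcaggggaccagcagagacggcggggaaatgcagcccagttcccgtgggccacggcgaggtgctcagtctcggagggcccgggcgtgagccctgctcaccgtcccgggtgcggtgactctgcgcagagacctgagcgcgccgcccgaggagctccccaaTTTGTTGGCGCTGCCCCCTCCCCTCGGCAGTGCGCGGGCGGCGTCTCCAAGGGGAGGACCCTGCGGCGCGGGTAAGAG
G and C make up 74.0% of the Col4a1 window and 73.7% of the Col4a2 window. Both hold a GC box, as do the windows of Tnc, Vcan and Fbln2, the other genes that fell and have a promoter in the table, and both hold a CCAAT box. Neither is particular to genes that fell. The GC box was in 70.8% of the 24 members with a promoter, among them Bgn and Hspg2, and in 38.2% of all genes with one. For the CCAAT box the shares were 41.7% and 41.1%.

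The laminin chains Lama2, Lamb1 and Lamc1, the linker nidogen-1 (Nid1) and the heparan sulfate proteoglycan perlecan (Hspg2) make up the rest of the tested basement membrane set. Their log2 fold changes ran from -0.74 ± 0.31 (Lama2) to 0.26 ± 0.25 (Hspg2) in GPR41 KO and from -0.31 ± 0.17 (Nid1) to 0.50 ± 0.25 (Hspg2) in GPR43 KO. Nid1 had 814 and 798 in WT, 554 and 624 in GPR41 KO, and 580 and 718 in GPR43 KO, with all 4 KO arrays below WT. Its adjusted p was 0.183 and 0.335, and GPR43 KO replicate 2 alone gave -0.16. Lamb1 and Hspg2 each had another probe set with the opposite sign in GPR41 KO (0.15 and -0.072). Hspg2 varied within WT, at 489 and 884, and passed as higher in GPR43 KO only without WT replicate 2 (0.92, adjusted p = 0.0410). Nid2 was not tested, with signals of 70.0 to 97.8.

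None of the 5 fibril-forming collagens passed in either comparison (limma, at an unadjusted p under 0.05, 2 were lower in GPR41 KO and 0 in GPR43 KO). By that unadjusted rule, 1126 of the 10917 genes tested were lower in GPR41 KO and 991 in GPR43 KO. Type I collagen, the main fibril of the gut wall, had Col1a1 signals of 1350 and 1535 in WT, 1158 and 1975 in GPR41 KO, and 1490 and 2122 in GPR43 KO, which overlap. Its log2 fold changes were 0.071 ± 0.25 and 0.30 ± 0.25 (0.55 for GPR43 KO replicate 2 alone). A second Col1a1 probe set read 1016 and 1287 in WT, 759 and 745 in GPR41 KO, and 653 and 737 in GPR43 KO. Here all 4 KO arrays were below WT, with -0.59 ± 0.17 (adjusted p = 0.115) and -0.71 ± 0.17 (adjusted p = 0.0746), so the direction for Col1a1 depends on the probe set. Col1a2 had -0.067 ± 0.19 and 0.29 ± 0.19 with the probe set used, and -0.53 and -0.13 with another. Col3a1, the type III collagen of compliant tissue, had 12513 and 15026 in WT, 10238 and 12246 in GPR41 KO, and 11014 and 14023 in GPR43 KO. Its log2 fold change of -0.29 ± 0.16 in GPR41 KO did not pass (adjusted p = 0.382), and its other probe set gave -0.79 (adjusted p = 0.0840). Its GPR43 KO value was -0.14, and 0.032 with replicate 2 alone.

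Type V collagen, which starts fibrils and limits their width, did not pass. Col5a2 read 1844 and 2444 in WT, 1111 and 1513 in GPR41 KO, and 1725 and 1705 in GPR43 KO, with both KO groups below WT. The log2 fold change was -0.70 ± 0.18 (adjusted p = 0.0707) in GPR41 KO, and passed without WT replicate 1 (-0.90, adjusted p = 0.0211). Against WT, GPR43 KO had -0.31 ± 0.18 (adjusted p = 0.404), and the same with replicate 2 alone. Col5a1 had -0.49 ± 0.15 (adjusted p = 0.121) in GPR41 KO and 0.0014 ± 0.15 in GPR43 KO (-0.084 with replicate 2 alone). Its other probe sets gave 0.17 and -0.25 in GPR41 KO, so the direction for Col5a1 depends on the probe set.

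**Figure D3:**
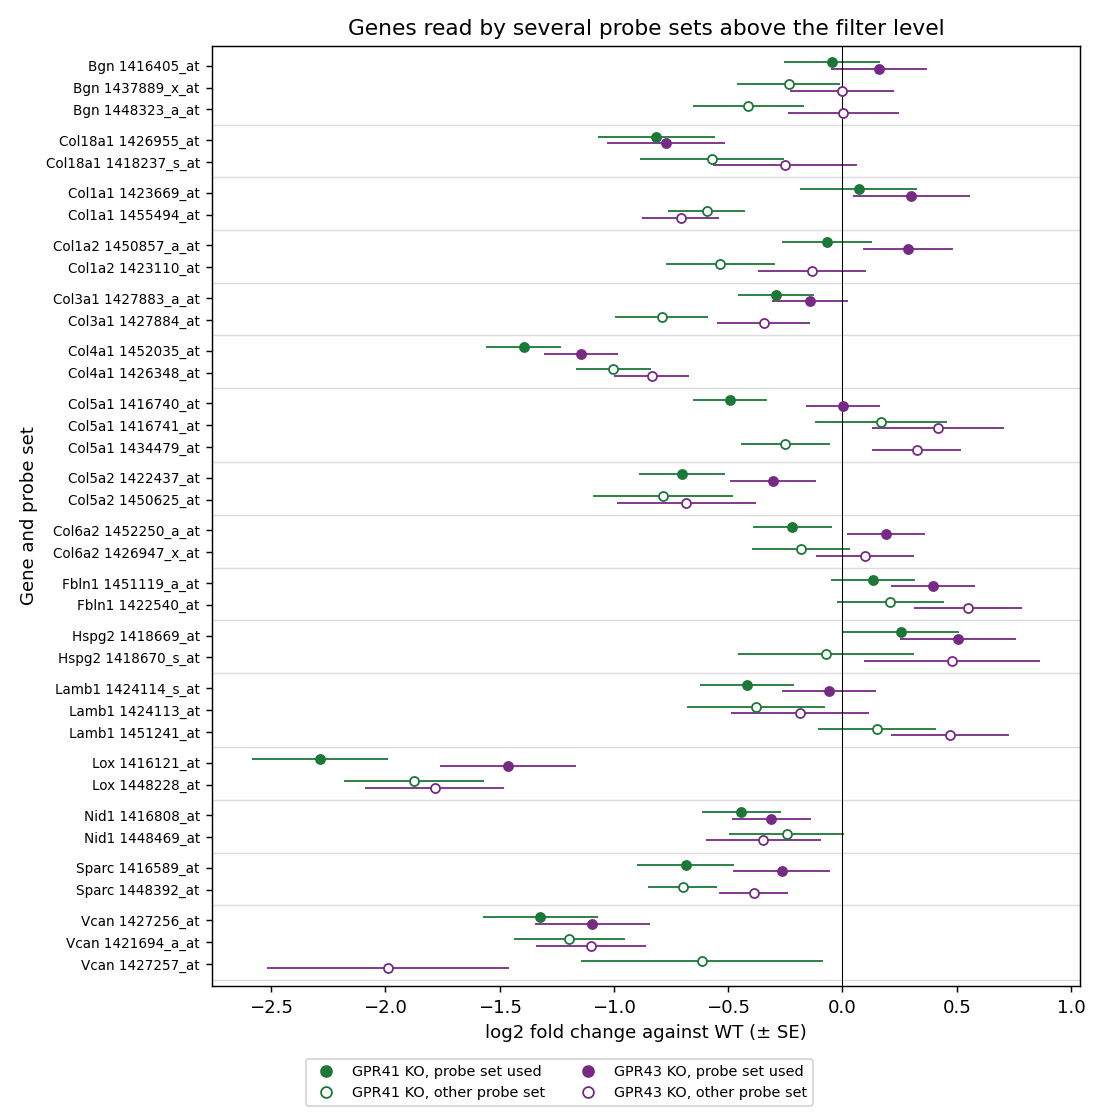
Log2 fold change against WT with its SE (x axis) for members read by several probe sets above the filter level (y axis), in a fit over all probe sets. Filled points are the probe set used for the gene and open points the others; Lox and Col4a1 are below 0 with each probe set, while those of Col1a1 lie on both sides of 0.

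The 7 other collagens did not pass either (at an unadjusted p under 0.05, 1 was lower in GPR41 KO, and 1 was lower and 2 higher in GPR43 KO). Of the 10917 genes tested, 1126 were lower in GPR41 KO by that rule, and 991 lower and 1190 higher in GPR43 KO. Type VI collagen forms beaded filaments around cells, and Col6a1, Col6a2 and Col6a3 had log2 fold changes between -0.29 and 0.14 in GPR41 KO and between -0.10 and 0.42 in GPR43 KO. Col18a1, a basement membrane collagen whose C-terminal fragment is endostatin, read 803 and 1372 in WT, 507 and 685 in GPR41 KO, and 589 and 626 in GPR43 KO. All 4 KO arrays were below WT, with -0.81 ± 0.25 (adjusted p = 0.115) and -0.77 ± 0.25 (adjusted p = 0.137), and both passed without WT replicate 1 (adjusted p 0.00951 and 0.0129). The GPR43 KO value was -0.73 with replicate 2 alone. A second Col18a1 probe set gave -0.57 and -0.25, and its GPR43 KO signals of 660 and 390 overlapped 455 and 809 in WT. Col12a1, Col14a1 and Col15a1, which sit on fibrils or near basement membranes, had values above 0 in both comparisons. Col15a1 read 154 and 149 in WT, 207 and 296 in GPR41 KO, and 363 and 224 in GPR43 KO, with 0.65 ± 0.29 (adjusted p = 0.266) and 0.84 ± 0.29 (adjusted p = 0.156, and 0.51 for GPR43 KO replicate 2 alone). Col12a1 differed more within WT, at 226 and 80.9, than between the groups' other arrays (228 to 304), and passed as higher only without WT replicate 1 (adjusted p 0.0241 and 0.0217).

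Of 4 tested elastic fibre genes, 1 passed in GPR41 KO and 0 in GPR43 KO. By the same rule, 3.11% and 2.41% of all genes tested were lower. Fbln2, a fibulin of elastic fibres and vessel walls, read 448 and 527 in WT, 226 and 286 in GPR41 KO, and 328 and 345 in GPR43 KO, and the 3 groups did not overlap. It fell in GPR41 KO (-0.89 ± 0.20, 1.85-fold lower, adjusted p = 0.0439), a call kept only without WT replicate 1 among the 6 arrays. In GPR43 KO it was -0.51 ± 0.20 (adjusted p = 0.214), and leaving out the library labelled GPR43 KO replicate 1 made it -0.47 (adjusted p = 0.458). Elastin (Eln) had -0.50 ± 0.23 (adjusted p = 0.284) and -0.15 ± 0.23, and Fbln1 and Fbln5 lay between 0.13 and 0.40 in the 2 comparisons.

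The small leucine-rich proteoglycans, which coat collagen fibrils and bind growth factors, differed in sign. Dcn, decorin, had 15434 and 27109 in WT, 11266 and 13207 in GPR41 KO, and 15942 and 13719 in GPR43 KO. Its log2 fold change was -0.74 ± 0.24 (adjusted p = 0.125) in GPR41 KO and -0.47 ± 0.24 (adjusted p = 0.315) in GPR43 KO, and both passed without WT replicate 1 (adjusted p 0.00160 and 0.00896). With GPR43 KO replicate 2 alone it was -0.58. Lum, lumican, lies next to Dcn on chromosome 10 and had 1147 and 2083 in WT, 1640 and 2718 in GPR41 KO, and 2456 and 2590 in GPR43 KO. Its values were 0.45 ± 0.29 (adjusted p = 0.455) and 0.70 ± 0.29 (adjusted p = 0.227), the second 0.74 with replicate 2 alone. Bgn, biglycan, had -0.046 ± 0.21 and 0.16 ± 0.21. Sparcl1, a matricellular protein related to Sparc, read 2410 and 2751 in WT against 2843 to 3886 in the 4 KO arrays, with 0.33 ± 0.15 (adjusted p = 0.289) and 0.50 ± 0.15 (adjusted p = 0.117), the second 0.42 with replicate 2 alone.

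**Figure D4:**
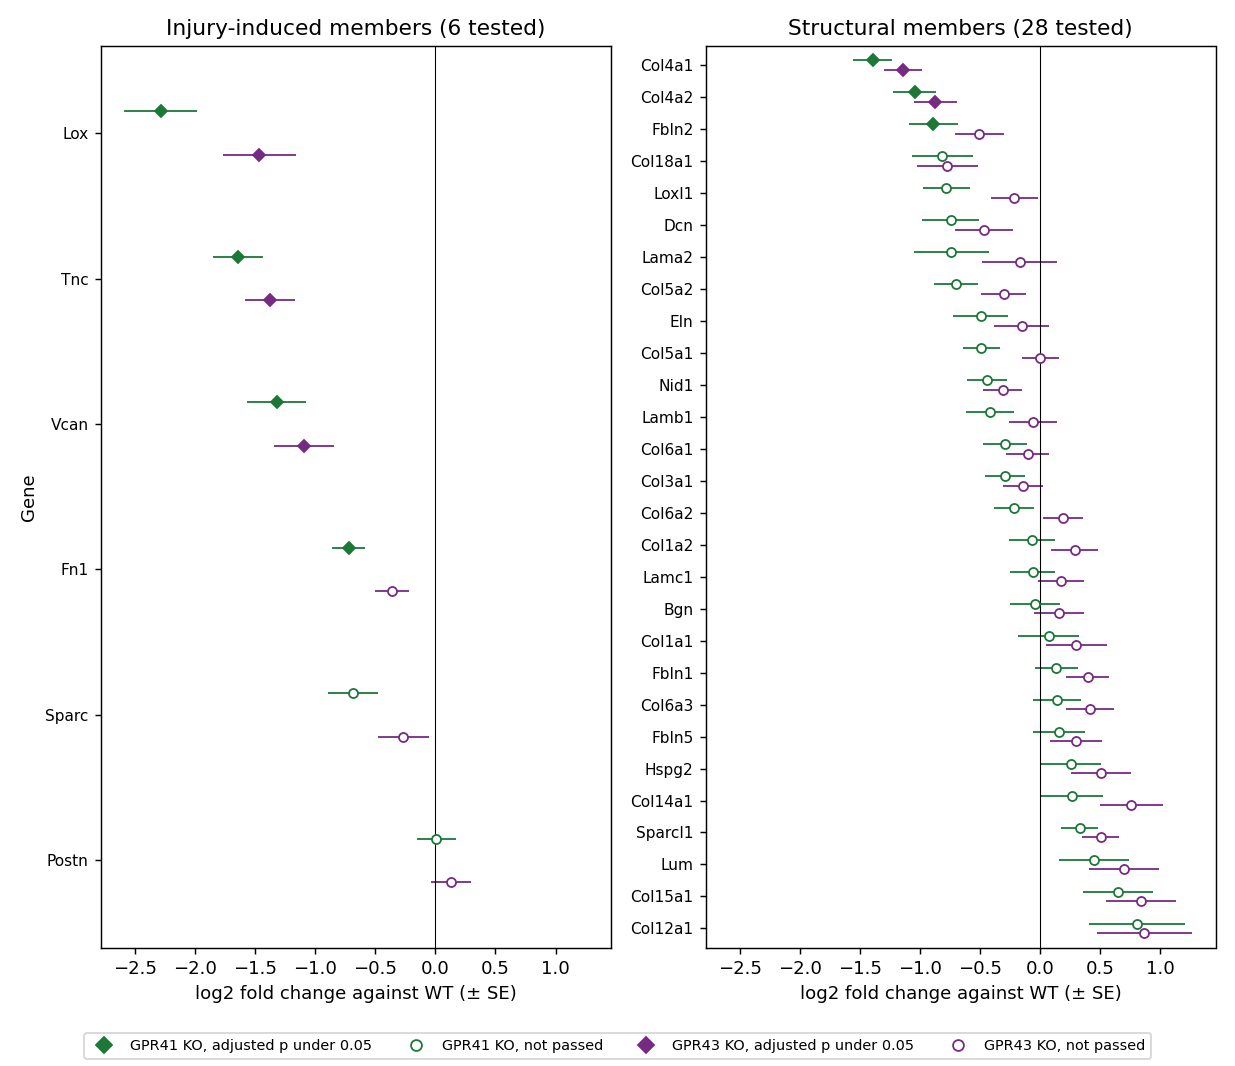
Log2 fold change against WT (x axis, with SE) of the 6 injury-induced and 28 structural members tested (y axis). Filled diamonds passed an adjusted p of 0.05 and open circles did not; all points that passed are below 0, at Lox, Tnc, Vcan and Fn1 on the left and at Col4a1, Col4a2 and Fbln2 on the right.

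GPR43 KO was also compared with GPR41 KO directly. None of the 34 tested members passed, nor did any under 18 alternatives, and 0% of all genes tested did (limma, at an unadjusted p under 0.05, 358 genes were higher and 238 lower, of which 5 were members, all higher). The mean was higher in GPR43 KO for 34 of 34 tested members, where 56.3% of all genes tested were higher. The median log2 difference was 0.26 against 0.030 for all genes. Both GPR43 KO arrays lay above both GPR41 KO arrays for 16 of the 34, where 23.1% of all genes did. Lox had 0.82 ± 0.30 (adjusted p = 0.871) with the probe set used but 0.091 ± 0.31 with its other probe set. Lama2 and Loxl1 had 0.57 each. These counts depended on GPR41 KO replicate 1, the array with the lowest median signal: without it, 25 of 34 members were higher and their median was 0.072, while without GPR41 KO replicate 2 it was 34 of 34 with a median of 0.42. With the library labelled GPR43 KO replicate 1 left out, 33 of 34 were higher with a median of 0.30, and without GPR43 KO replicate 2 it was 29 of 34. With arrays centred on their medians, 32 of 34 members were higher with a median of 0.16, where 37.5% of all genes tested were higher and their median was -0.065.

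Genes that control matrix production were read from lists chosen for their role. Of 17 tested genes of TGF-beta and CCN signalling, the pathway that induces matrix genes in fibroblasts, 6 were lower and 1 higher in GPR41 KO, and 4 were lower and 1 higher in GPR43 KO. Their median log2 fold change was -0.45 and -0.19, beside 0.00057 and 0.030 over all genes tested. Of all genes tested, 3.11% were lower and 1.85% higher in GPR41 KO, and 2.41% and 1.55% in GPR43 KO. Thbs1, thrombospondin-1, which activates latent TGF-beta, read 2900 and 4517 in WT, 450 and 655 in GPR41 KO, and 491 and 507 in GPR43 KO. It fell by 2.70 on the log2 scale (SE 0.24, adjusted p = 0.000745) in GPR41 KO. In GPR43 KO it fell by 2.81 (SE 0.24, adjusted p = 0.00118), and it passed when any 1 array was left out. Ccn2, connective tissue growth factor, read 3502 and 3037 in WT, 1021 and 1500 in GPR41 KO, and 974 and 1329 in GPR43 KO. It fell by 1.38 (adjusted p = 0.00715) in GPR41 KO and fell by 1.50 (adjusted p = 0.00690) in GPR43 KO, and the second stayed past the threshold with GPR43 KO replicate 2 alone (-1.28, adjusted p = 0.0387). The first call did not hold when GPR41 KO replicate 1 was left out (adjusted p = 0.0525).

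Tgfbr3, the co-receptor betaglycan, read 1669 and 2221 in WT, 738 and 818 in GPR41 KO, and 1087 and 939 in GPR43 KO. It fell by 1.29 (adjusted p = 0.00385) in GPR41 KO, whichever array was left out, and fell by 0.92 (adjusted p = 0.0220) in GPR43 KO. The second call was lost on leaving out the library labelled GPR43 KO replicate 1 (-1.02, with an adjusted p of 0.0586), GPR43 KO replicate 2 or WT replicate 2. Inhba, which encodes an activin subunit, fell by 1.92 (adjusted p = 0.0182) in GPR41 KO, a call lost without WT replicate 2 or either GPR41 KO array. Tgfbi, a matrix protein induced by TGF-beta, fell by 0.98 (adjusted p = 0.0223) in GPR41 KO and fell by 0.87 (adjusted p = 0.0425) in GPR43 KO. The first Tgfbi call was lost without WT replicate 2 or GPR41 KO replicate 1, and the second when WT replicate 2 or either GPR43 KO array was left out (adjusted p = 0.0782 when the library labelled GPR43 KO replicate 1 was left out). The sixth gene lower in GPR41 KO was the ligand Tgfb1 (-1.16, adjusted p = 0.0314), lost without WT replicate 2 or either GPR41 KO array. Smad7, an inhibitor of TGF-beta signalling, was the gene that rose, by 0.76 (adjusted p = 0.0274) in GPR41 KO and 0.97 (adjusted p = 0.0122) in GPR43 KO. Those calls were lost without WT replicate 2 or GPR41 KO replicate 1, and without either GPR43 KO array (adjusted p = 0.0533 when the library labelled GPR43 KO replicate 1 is left out).

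Of 20 tested matrix receptors, Itga5, the integrin subunit that binds fibronectin, was lower in both KO groups. It read 525 and 527 in WT, 245 and 224 in GPR41 KO, and 222 and 243 in GPR43 KO, with log2 fold changes of -1.11 ± 0.19 (adjusted p = 0.0136) and -1.12 ± 0.19 (adjusted p = 0.0165). Either call was lost without WT replicate 2 or either array of that KO group (adjusted p = 0.0844 when the library labelled GPR43 KO replicate 1 is left out). Cd44, a hyaluronan receptor also carried by leukocytes, was lower in GPR43 KO (-0.87 ± 0.18, adjusted p = 0.0329), a call lost without WT replicate 2 or either GPR43 KO array (adjusted p = 0.116 when the library labelled GPR43 KO replicate 1 is left out). The other receptors did not pass. Those called lower were 5% of the 20 in GPR41 KO and 10% in GPR43 KO, where 3.11% and 2.41% of all genes tested were. The receptor medians were -0.073 and 0.015. None of 13 tested genes for collagen folding, hydroxylation and cleavage passed in either comparison, with medians of -0.29 and -0.32 (at an unadjusted p under 0.05, 4 were lower and 1 higher in GPR41 KO, and 2 lower and 1 higher in GPR43 KO). Of the 10917 genes tested, 1126 were lower and 1006 higher in GPR41 KO by that rule, and 991 and 1190 in GPR43 KO.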

How the data were processed

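Each of 6 colon RNA samples was labelled with biotin from 2 µg of total RNA and read on 1 mouse expression array, per the labels. The deposited values are intensity per probe set on a linear scale, made by the authors with MAS5 per the submitters' processing notes (version not given in the sources used here). Leaving out the top and bottom 2% of probe sets, every array had a mean of 500.0, so the arrays had been scaled.

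Of 45101 probe sets, 34958 carried 1 gene, 932 several and 9211 none in the array's annotation. Symbols were joined through it, the probe set with the highest mean log2 signal was kept per gene, and genes above the 40th percentile of mean log2 signal were tested. Differences are log2(signal + 18), which understates changes of weak genes; 18 is about the 20th percentile of all values. This filter left out Nid2, Has1 and Has2, and a gene weak in 1 group passed only if it was high in others. limma 3.58.1 in R 4.3.3 fitted 1 mean per group to all 6 arrays (eBayes with an intensity trend), with two-sided tests and Benjamini-Hochberg adjustment over all genes tested; ± is the SE of that fit. With 1 array left in a group, that array is assumed to vary like the others. The procedure was tested on simulated data. Groups came from the sample titles.

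Members, their split into injury-induced and structural, and lists were chosen with earlier results of these data known. Context genes were named by smallest p (up to 4 per list and comparison) or where a count held 5 or fewer; Tgfb1 was named after its value was seen. The TGF-beta, receptor, processing and marker lists were written by hand. Promoters came from RefSeq (GRCm38.p6); protein sequences were not used here. Alternatives covered the pseudocount, a floor, quantile normalization, median centring, the filter, the mean over probe sets, eBayes settings, a fit of 2 groups, a replicate block and each array left out.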

Additional observations from a re-analysis of the deposited data

How the results depend on the processing

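No gene that passed turned direction under any alternative run. The count of members lower in GPR41 KO was 4 with the filter at the 60th percentile and 2 with the mean over probe sets, and 3 to 12 with 1 array left out; the count higher was 0 to 1. The count lower in GPR43 KO was 3 without a filter, with the 60th percentile filter or with eBayes without trend, 2 with the mean over probe sets, and 0 to 7 with 1 array left out; the count higher was 0 to 1. Lox and Vcan lie under the filter with the 60th percentile or with the mean over probe sets, and Fbln2 with the 60th percentile; for the other changes the cause was not tested. Of 18 alternatives, Col4a1 passed in 18 and 17, Tnc in 17 and 16, Col4a2 in 16 and 14, Lox in 16 and 11, Vcan in 13 and 6, Fn1 in 11 (GPR41 KO) and Fbln2 in 7 (GPR41 KO).

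The median of injury-induced genes in GPR41 KO was -0.70 (60th percentile) and -0.73 (mean over probe sets), and -1.22 to -0.89 with 1 array left out. In GPR43 KO it was -0.31 and -0.50, and -0.89 to -0.59. The structural median ran from -0.37 to -0.091 in GPR41 KO with 1 array left out, and changed sign from 0.080 to -0.10 in GPR43 KO with the mean over probe sets. Between KO groups, the injury-induced median was 0.13 with the mean over probe sets, and the structural median 0.049 to 0.43 with 1 array left out.

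With a replicate block, 5 members were lower in GPR41 KO (Fn1 adjusted p = 0.0513, Fbln2 0.0612) and 3 in GPR43 KO (Lox 0.0652, Vcan 0.0843). The labels do not say whether arrays with the same replicate number were paired. The replicate differences of 10917 genes correlated at 0.11 (WT and GPR41 KO), -0.27 (WT and GPR43 KO) and -0.054 (both KO groups). Such correlations cannot show whether a litter or day was shared. Over all genes tested, 202 were higher and 339 lower in GPR41 KO, and 169 and 263 in GPR43 KO. These counts were 89 and 271, and 49 and 168, with eBayes without trend; 165 and 170, and 140 and 140, with the 60th percentile filter; 133 and 284, and 93 and 205, with the mean over probe sets; 134 and 267, and 102 and 193, with the block; 160 and 310, and 96 and 218, with 2 groups; and 314 and 338 in GPR41 KO with median centring. With 1 array left out they were 56 to 378 and 139 to 513 in GPR41 KO, and 25 to 358 and 104 to 401 in GPR43 KO.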

Other observations

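Matrix genes differed within groups as well as between them. WT replicate 2 read higher than WT replicate 1 for 27 of the 37 members with a probe set (median log2 difference 0.33), where 55.4% of all genes tested did. GPR41 KO replicate 2 read higher than GPR41 KO replicate 1 for 32 of the 37 (median 0.38), where 51.9% of all genes did. In GPR43 KO it was 18 of 37 (median -0.010), where 46.8% of all genes did.

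Further neighbours on a chromosome (GRCm38.p6) did not all move alike. Dcn and Lum on chromosome 10, 47337 bases apart with 0 protein-coding genes between them, had log2 fold changes of -0.74 and 0.45 in GPR41 KO. Col3a1 and Col5a2 on chromosome 1 are 24624 bases apart and had -0.29 and -0.70. Col6a1 and Col6a2 on chromosome 10 are 85161 bases apart and had -0.29 and -0.22.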
